A study of Mus musculus with 12 samples.

Results

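The genes described here encode the proteasome and the proteins that activate, inhibit or assemble it. They were taken as every row of the expression table named Psma, Psmb, Psmc, Psmd, Psme, Psmf or Psmg followed by a number, which gave 48 of 50978 rows. RNA had been sequenced from mouse E14 embryonic stem cells (ESCs) grown in serum with LIF, in 3 lines with 2 libraries each. Parental ESCs carried no transgene. ESC + H/F-PRAMEL7WT (PRAMEL7WT ESCs) carried HA/FLAG-tagged full-length PRAMEL7, and ESC + H/F-PRAMEL7ΔN (PRAMEL7ΔN ESCs) carried the same protein without its N-terminus, whose length the labels and the study's text give differently. Both transgenes had been inserted with Cas9 at Rosa26 under the CAG promoter and selected with puromycin, and each derived line is a single-cell clone, so that the line and the clone cannot be told apart. The 2 libraries of a line came from separate dishes, so p-values measure the spread between dishes within a line, pooled over the 3 lines, and not that between clones. The study relates PRAMEL7 to proteasomal degradation through the ubiquitin ligase subunit CUL2, and the question asked of these genes is whether the transcripts of the proteasome itself differ between the lines.

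The proteasome is the large protease that destroys proteins tagged with ubiquitin. Its 20S core is a barrel of alpha and beta rings with the cutting sites on the inside of the beta rings, and the 19S particle at either end holds ATPases that unfold the substrate, a base that receives it, and a lid that removes the ubiquitin. Other caps, the activators, open the core without ubiquitin, and cells under interferon swap the catalytic beta subunits for inducible forms that favour peptides for display on MHC class I. Embryonic stem cells are known for high proteasome activity.

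Each library held between 18251396 and 19851580 reads on genes. Values are given as reads on genes scaled to the library's total (CPM), and fold changes as differences of log2(CPM + 1) with their standard error (SE) from one limma fit of 12914 genes with more than 1 CPM in at least 2 libraries. A gene was called where its Benjamini-Hochberg adjusted p from limma was under 0.05. Pramel7 itself stood at 0.237 ± 0.029 CPM in parental ESCs, 48.7 ± 3.5 in PRAMEL7WT ESCs and 414 ± 23 in PRAMEL7ΔN ESCs (mean ± SD, n = 2), so the derived lines differed in transgene RNA as well as in its sequence. All 10 pluripotency markers listed were expressed, and their summed level was between 5437 and 6672 CPM in the 6 libraries. They were not level between lines: Nanog, Zfp42, Klf4 and Tdgf1 were lower and Utf1 higher in PRAMEL7WT ESCs than in parental ESCs, Dppa5a was higher in PRAMEL7ΔN ESCs, and 5 of the 10 (Nanog, Zfp42, Klf4, Esrrb and Tdgf1) were lower in PRAMEL7WT than in PRAMEL7ΔN ESCs. Of 7 fibroblast genes, Dcn and Lum were at 0 in all libraries and 2 passed the filter, Thy1 and Col1a1, both lower in PRAMEL7WT ESCs than in parental ESCs (-1.08 and -1.02, adjusted p = 0.0015 and 0.011). The sum of the 7 was 41.9 and 55.7 CPM in parental ESCs, 21.1 and 22.4 with full-length and 43.7 and 38.8 with truncated PRAMEL7, nearly all of it Thy1. The part of these markers in the results was not tested. Where transcripts are summed over a dish, fewer cells with a transcript and less of it per cell cannot be told apart.

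All but 2 of the proteasome genes passed the filter. Per kilobase of a representative transcript, the 31 constitutive subunits of the 26S particle (20S core with 19S caps) ranged from 60.5 CPM for the ATPase Psmc6 to 487 CPM for the catalytic subunit Psmb6, a spread of 8.06-fold around a median of 185. Within one complex whose subunits are present once per ring or cap, the transcript levels thus differed by this factor. The activator transcripts lay between 45.7 (Psme4) and 154 CPM per kilobase (Psme3), and the chaperones of 19S base assembly between 15.0 (Psmd10) and 30.8 (Psmd5). The inducible subunit Psmb9 was at 1.69 CPM per kilobase and Psmb10 at 26.6. Psmb8 and the thymus subunit Psmb11 did not pass the filter: Psmb8 had 4 and 6 reads in parental ESCs, 1 and 0 in PRAMEL7WT ESCs and 2 in each library of PRAMEL7ΔN ESCs, and Psmb11 had 1 read in each library of PRAMEL7WT ESCs and none elsewhere. Neither was tested.

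**Figure D1:**
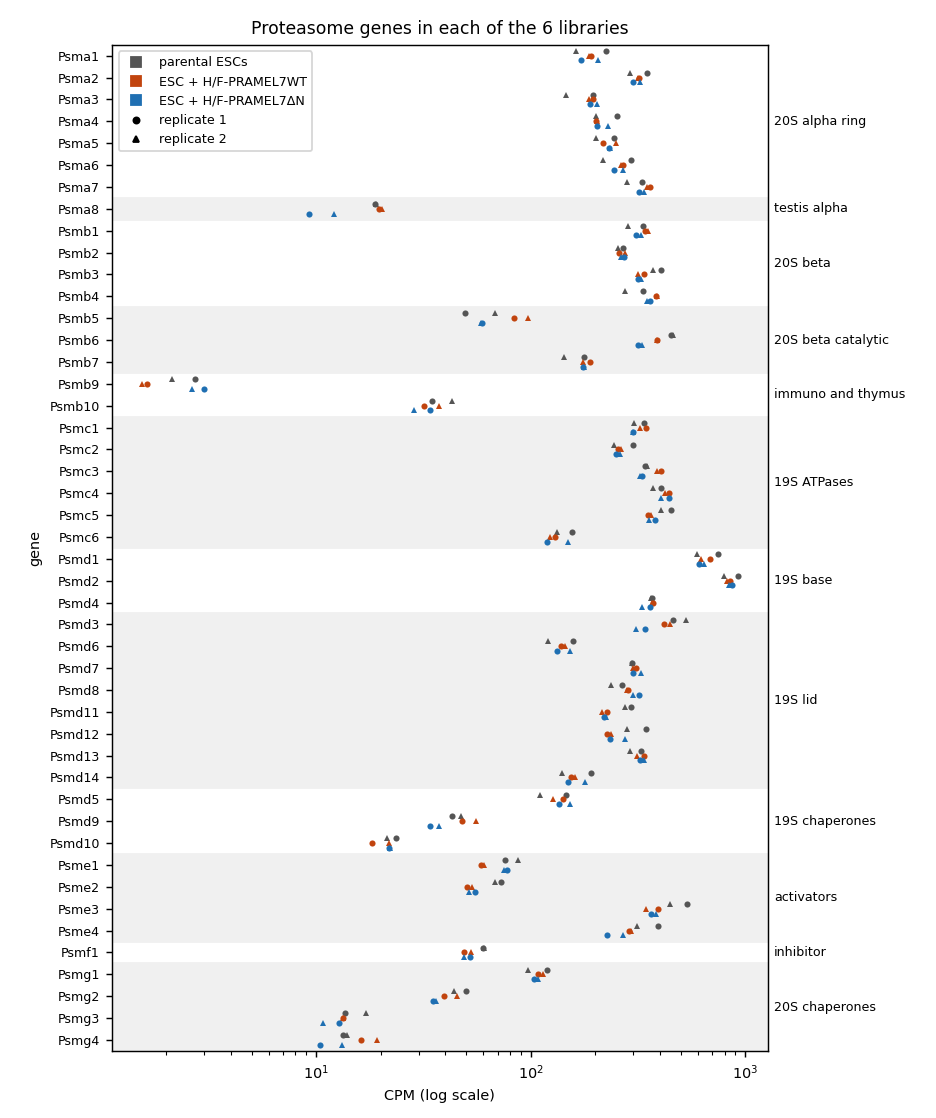
CPM of the 46 proteasome genes that passed the filter (log scale, horizontal) in each library, with genes grouped by role; colour marks the line, circles replicate 1 and triangles replicate 2. Most constitutive subunits lie above 100 CPM with the 3 lines interleaved, while Psma8, Psmb9 and the assembly chaperones are lower.

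In PRAMEL7WT ESCs against parental ESCs, 2 of the 46 genes tested were higher and 5 were lower, or 4.35% and 10.9% of them. Over all genes tested, 8.71% were higher and 16.3% were lower, so neither share stood above the background. With median-ratio scaling the split over all genes moved from 1125 higher and 2109 lower to 1673 and 1495, and that of the proteasome genes to 4 and 3; with quantile scaling it was 1508 and 1541, and 2 and 8 for the proteasome genes. The genes that rose were the 20S subunits Psmb4 and Psmb5, and those that fell were the lid subunits Psmd11 and Psmd12 and the activators Psme1, Psme2 and Psme3. The median log2 fold change of the 46 genes was -0.0053, beside -0.078 over all genes tested. Without PRAMEL7WT replicate 1 or 2, which leaves 1 library of that line, calls fell among these genes and over all genes tested. Medians of the 46 genes were then -0.016 and -0.0029, beside -0.068 and -0.088 over all genes tested.

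In PRAMEL7ΔN ESCs against parental ESCs, 1 gene was higher and 8 were lower, or 2.17% and 17.4%, where 6.25% and 13.6% of all genes tested were. The lid subunit Psmd8 rose. Psma8, Psmb6, Psmd3, Psmd11, Psme2, Psme3, Psme4 and Psmg2 fell. The median was -0.075, beside -0.057 over all genes tested. Median-ratio scaling moved the split over all genes from 807 higher and 1759 lower to 1122 and 1368, with 1 and 6 for the proteasome genes, and quantile scaling to 1075 and 1228, with 0 and 8. Without PRAMEL7ΔN replicate 1 or 2, which leaves 1 library of that line, calls fell among the proteasome genes and over all genes tested. Medians of the proteasome genes were then -0.026 and -0.081, beside -0.050 and -0.069 over all genes tested.

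Both comparisons use the same parental libraries, so what they share is not independent. Compared directly, 7 genes were higher in PRAMEL7WT ESCs than in PRAMEL7ΔN ESCs (15.2%) and 2 were lower (4.35%), where 10.9% and 9.44% of all genes tested were. The median difference was 0.022, beside -0.017 over all genes tested. Between these lines Psma8, Psmb5, Psmb6, Psmc3, Psmd3, Psmd9 and Psmg4 were higher with the full-length protein, and Psmb9 and Psme1 were lower. Without 1 of the 4 derived libraries, calls fell among the proteasome genes and over all genes tested. Medians of the proteasome genes then lay between -0.00064 and 0.052, and those over all genes tested between -0.025 and -0.0044. Over the 3 comparisons 25 calls were made, and 2 of them, Psmb6 and Psmd3 in PRAMEL7ΔN ESCs against parental ESCs, kept an adjusted p under 0.05 in every other setting in which they were tested and when any 1 library was left out.

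The differences were small. The 95% confidence interval of the log2 fold change lay within 0.58 of zero, a change of about 1.5 times in either direction and the study's own limit, for 39 of the 46 genes in the first comparison, 36 in the second and 40 in the third. Past that limit with an unadjusted p under 0.05, 1 gene was higher (Psmb5) and 0 were lower in the first comparison, where 4.65% and 9.01% of all genes tested were. In the second, 0 were higher and 2 lower (Psma8 and Psmd3), beside 3.14% and 9.17%, and in the third, 2 were higher (Psma8 and Psmb5) and 0 lower, beside 7.19% and 5.24%. The libraries of the compared lines did not overlap for 11 higher and 14 lower genes in the first comparison (24.3% and 40% of all genes tested), for 3 and 19 in the second (21.6% and 35.4%), and for 15 and 3 in the third (33.2% and 35.6%).

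**Figure D2:**
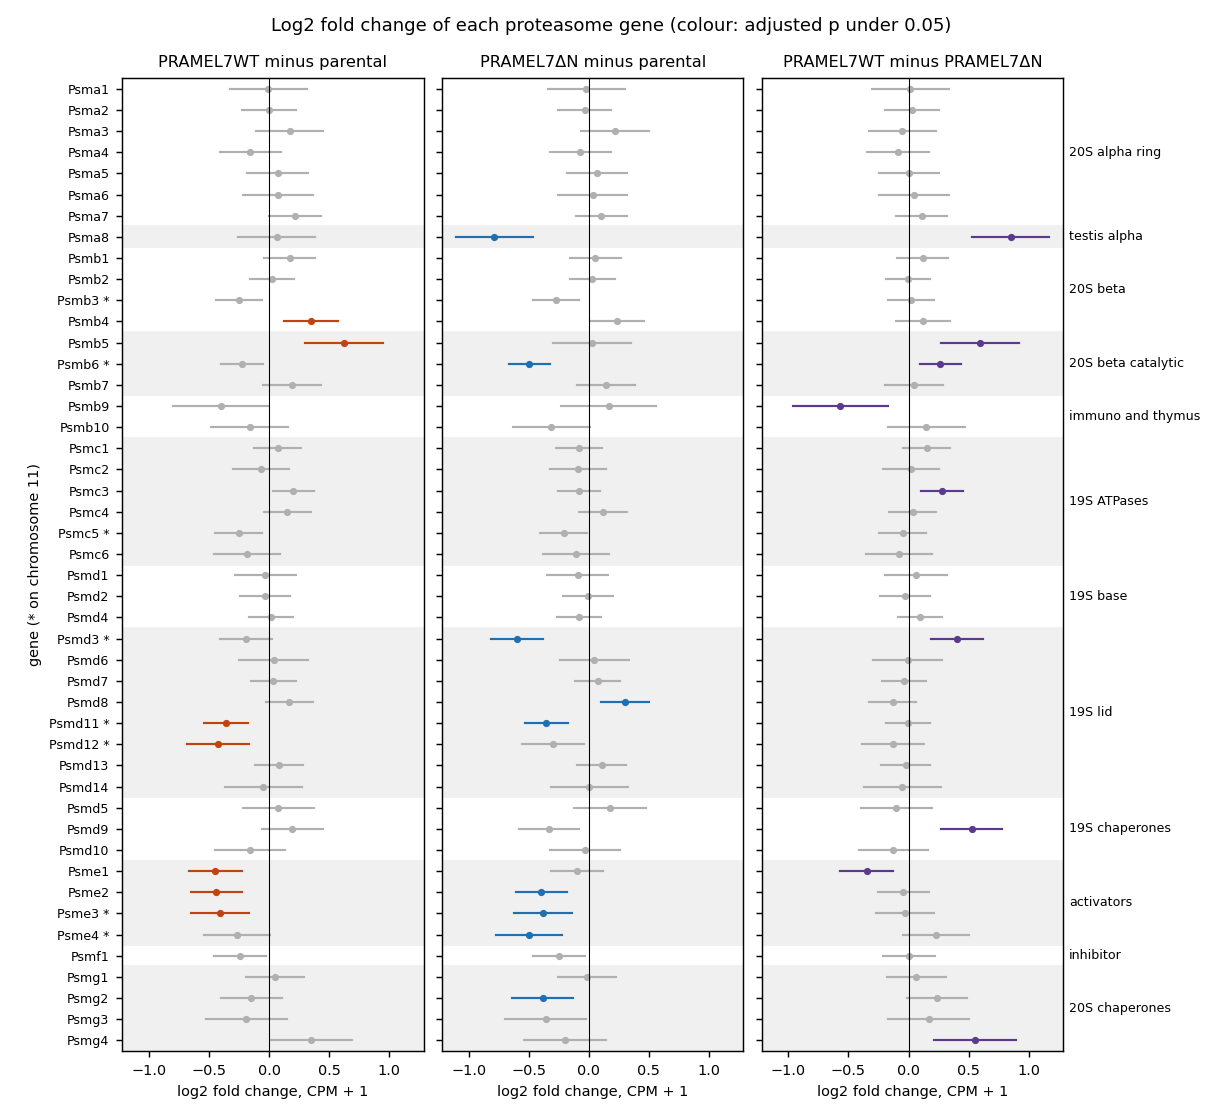
Log2 fold change of each of the 46 genes with its 95% confidence interval (horizontal, on log2(CPM + 1)) in the 3 comparisons, coloured where the adjusted p is under 0.05; an asterisk marks genes on chromosome 11. Intervals of Psma1 to Psma7 stay within 0.58 of zero and no call was made among them. The points of all 4 activators lie left of zero in both comparisons with parental ESCs. Subtracting the shift of its chromosome relative to all genes moved Psme4 to 0.0074 in PRAMEL7WT ESCs.

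The 7 constitutive subunits of the alpha ring, Psma1 to Psma7, form the gate of the core. None was called in any comparison, and their log2 fold changes lay between -0.16 (Psma4) and 0.21 (Psma7) in PRAMEL7WT ESCs and between -0.070 (Psma4) and 0.22 (Psma3) in PRAMEL7ΔN ESCs. All 7 intervals lay within 0.58 of zero in each comparison. Psma8, the germ cell form that takes the place of Psma7 in testis, stood at 18.8 and 19.04 CPM in the parental libraries, 19.5 and 20.2 in PRAMEL7WT ESCs, and 9.23 and 12.04 in PRAMEL7ΔN ESCs. The last 2 libraries lay below the other 4, and the mean was 0.562 times that of parental ESCs (log2 fold change -0.79 ± 0.14 SE, adjusted p = 0.0052). Against PRAMEL7WT ESCs the log2 difference was 0.85 ± 0.14 (adjusted p = 0.0036). The first call was lost without PRAMEL7ΔN replicate 1 (-0.61, adjusted p = 0.058) and the second without PRAMEL7WT replicate 2 (0.83, adjusted p = 0.051).

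Among the structural beta subunits, Psmb1, Psmb2 and Psmb3 were not called. Psmb1 was at 0.17 and Psmb3 at -0.25 in PRAMEL7WT ESCs, and Psmb3 at -0.27 in PRAMEL7ΔN ESCs. Psmb4, another structural subunit, was at 332 and 274 CPM in the parental libraries, 382 and 387 in PRAMEL7WT ESCs and 361 and 348 in PRAMEL7ΔN ESCs. Both parental libraries were the lowest of the 6. The log2 fold change was 0.35 ± 0.10 in PRAMEL7WT ESCs (adjusted p = 0.031) and 0.23 ± 0.10 in PRAMEL7ΔN ESCs (adjusted p = 0.14), and the lines themselves did not differ beyond their spread (0.12 ± 0.10, adjusted p = 0.43). The first value was called only when all libraries were kept or parental replicate 1 was left out; without parental replicate 2 it was 0.21 (adjusted p = 0.066).

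Of the 3 constitutive catalytic subunits of the core, Psmb5 was called higher in PRAMEL7WT ESCs against parental ESCs, where 8.71% of all genes tested were. Psmb6 was called lower in PRAMEL7ΔN ESCs against parental ESCs, where 13.6% of all genes tested were. Psmb6 lies on chromosome 11, where 39.3% of genes were lower in that line. Psmb5 carries the chymotrypsin-like site, the target of bortezomib. Its level was 49.5 and 68.1 CPM in parental ESCs, 83.1 and 97.1 in PRAMEL7WT ESCs and 59.4 and 58.8 in PRAMEL7ΔN ESCs. Both libraries with full-length PRAMEL7 lay above the other 4, with a mean 1.53 times that of parental ESCs. The log2 fold change was 0.62 ± 0.14 against parental ESCs (adjusted p = 0.014) and 0.60 ± 0.14 against PRAMEL7ΔN ESCs (adjusted p = 0.019), and PRAMEL7ΔN ESCs was at 0.024 ± 0.14 against parental ESCs (adjusted p = 0.93, 95% interval -0.30 to 0.35). The call against parental ESCs was lost without PRAMEL7WT replicate 1 (0.73, adjusted p = 0.058) or replicate 2 (0.51, adjusted p = 0.13).

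Reads of Psmb5 and of a second locus are uncertain in their assignment. The genome holds a copy, Gm3375 (GRCm38, chr7:3181093-3181888, plus strand), whose 796 bases align with the Psmb5 transcript at 98.9% identity with 8 mismatches. The most divergent stretch of 100 coding bases is shown for the gene (bases 319 to 418 of its transcript) and the pseudogene (bases 289 to 388) from GENCODE, with the 3 differing bases in capitals. Of the 697 windows of 100 bases in the alignment, 27.0% are identical in both loci and 87.4% differ by at most 2 bases.
Psmb5: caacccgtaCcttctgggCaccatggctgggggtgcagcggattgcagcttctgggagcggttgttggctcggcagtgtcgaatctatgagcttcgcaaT
Gm3375: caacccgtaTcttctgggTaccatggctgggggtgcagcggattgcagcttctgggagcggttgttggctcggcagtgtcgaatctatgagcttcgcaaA

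Gm3375 was counted at 39.8 and 36.2 CPM in parental ESCs, 47.2 and 49.5 in PRAMEL7WT ESCs and 46.3 and 39.6 in PRAMEL7ΔN ESCs, on average 62.2% of Psmb5. It was highest in the same 2 libraries as Psmb5, but was not called in any comparison (0.34 ± 0.11 in PRAMEL7WT ESCs, adjusted p = 0.051). With both loci added together, an alternative chosen after seeing the data, the sums were 89.3 and 104 CPM in parental ESCs, 130.3 and 147 in PRAMEL7WT ESCs and 106 and 98.4 in PRAMEL7ΔN ESCs. The log2 fold change of the sum was 0.51 ± 0.11 against parental ESCs (adjusted p = 0.0088) and 0.44 ± 0.11 against PRAMEL7ΔN ESCs (adjusted p = 0.019), so both calls held. Of the other proteasome genes, 6 had copies with at least 95% identity over at least 50% of the transcript, and the highest of those copies that could be matched was at 1.46 CPM beside 215 CPM for its parent gene Psma4.

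Psmb6, the caspase-like subunit, was at 449 and 462 CPM in parental ESCs, 387 and 389.6 in PRAMEL7WT ESCs, and 318 and 329 in PRAMEL7ΔN ESCs. The 3 lines did not overlap, in the order parental, full-length, truncated. The log2 fold change was -0.49 ± 0.077 in PRAMEL7ΔN ESCs (adjusted p = 0.0027), -0.23 ± 0.077 in PRAMEL7WT ESCs (adjusted p = 0.056), and 0.27 ± 0.077 between the derived lines (adjusted p = 0.039). Psmb7, the trypsin-like subunit, was at 178 and 144 CPM in parental ESCs, 189.7 and 175 in PRAMEL7WT ESCs and 176 and 177 in PRAMEL7ΔN ESCs. Its libraries overlapped in each comparison, with log2 fold changes of 0.19 ± 0.11, 0.14 ± 0.11 and 0.048 ± 0.11 (adjusted p = 0.22, 0.40 and 0.78). Psmb7 shares 405 exonic bases with Nek6 on the opposite strand (35.3 CPM on average), and reads there cannot be told apart.

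The inducible counterparts were scarce. Psmb9, which replaces Psmb6, had 2.74 and 2.12 CPM in parental ESCs, 1.62 and 1.54 in PRAMEL7WT ESCs and 3.01 and 2.64 in PRAMEL7ΔN ESCs. The lines with full-length and truncated PRAMEL7 differed by -0.57 ± 0.18 (adjusted p = 0.048), and neither was called against parental ESCs (-0.40 ± 0.18, adjusted p = 0.12, and 0.16 ± 0.18, adjusted p = 0.56). Psmb9 shares 212 exonic bases with Tap1 on the opposite strand, which was at a similar 2.21 CPM on average, and the library kit does not mark strand, so their reads cannot be told apart there. Psmb10, which replaces Psmb7, was at 34.7 and 43.1 CPM in parental ESCs, 31.8 and 37.4 in PRAMEL7WT ESCs and 33.8 and 28.5 in PRAMEL7ΔN ESCs. It was not called (-0.16 ± 0.14 and -0.31 ± 0.14 against parental ESCs, adjusted p = 0.43 and 0.16).

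The 6 ATPases of the 19S base, Psmc1 to Psmc6, thread the substrate into the core. None was called against parental ESCs in either line. Psmc3 was at 342 and 348 CPM in parental ESCs, 405 and 389 in PRAMEL7WT ESCs and 331 and 322 in PRAMEL7ΔN ESCs. The full-length line lay above the other libraries, and the derived lines differed by 0.28 ± 0.078 (adjusted p = 0.032). Psmc3 shares 215 exonic bases with Slc39a13 on the opposite strand, at 6.56 CPM on average. The scaffold subunits Psmd1 and Psmd2, at means of 671 and 859.7 CPM in parental ESCs, were not called. Psmd4, the ubiquitin receptor, was at 368 and 362 CPM in parental ESCs, 371 and 367 in PRAMEL7WT ESCs and 361 and 329 in PRAMEL7ΔN ESCs. Its log2 fold changes were 0.016 ± 0.082 and -0.082 ± 0.082 against parental ESCs (adjusted p = 0.91 and 0.53), with intervals of -0.17 to 0.20 and -0.27 to 0.10.

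In the 19S particle, the subunits called against parental ESCs were all lid subunits: Psmd3, Psmd8, Psmd11 and Psmd12. Psmd3, a scaffold subunit of the lid, was at 459 and 529 CPM in parental ESCs, 418 and 444 in PRAMEL7WT ESCs and 342 and 310.1 in PRAMEL7ΔN ESCs. As with Psmb6, the lines were ordered parental, full-length, truncated without overlap. The log2 fold change was -0.60 ± 0.097 in PRAMEL7ΔN ESCs (adjusted p = 0.0031), -0.19 ± 0.097 in PRAMEL7WT ESCs (adjusted p = 0.16), and 0.40 ± 0.097 between the derived lines (adjusted p = 0.018).

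Psmd11, a lid subunit whose level has been tied to proteasome assembly in human ESCs, was at 293 and 275 CPM in parental ESCs, 227 and 215 in PRAMEL7WT ESCs and 220.0 and 225 in PRAMEL7ΔN ESCs. The derived lines did not differ beyond their spread from each other (-0.0074 ± 0.081, 95% interval -0.19 to 0.17), and both lay below parental ESCs, by -0.36 ± 0.081 (adjusted p = 0.013) and -0.35 ± 0.081 (adjusted p = 0.015). Psmd12 was at 345 and 281 CPM in parental ESCs, 226 and 237 in PRAMEL7WT ESCs and 234 and 274 in PRAMEL7ΔN ESCs, a log2 fold change of -0.43 ± 0.12 (adjusted p = 0.026) and -0.30 ± 0.12 (adjusted p = 0.10). Without PRAMEL7WT replicate 1 or 2, the calls in PRAMEL7WT ESCs were lost for both genes. The values were then -0.40 and -0.32 for Psmd11, and -0.39 and -0.46 for Psmd12. Psmd8 was at 265 and 237 CPM in parental ESCs, 283 and 281 in PRAMEL7WT ESCs and 320.4 and 298 in PRAMEL7ΔN ESCs, where it was called higher (0.30 ± 0.088, adjusted p = 0.040). That call held in 7 of 13 other settings and in 1 of 6 fits that left out a library.

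Psmd14, the deubiquitinase of the lid, was at 189.9 and 139.5 CPM in parental ESCs, 154 and 160.5 in PRAMEL7WT ESCs and 149 and 179 in PRAMEL7ΔN ESCs. The 2 parental libraries enclosed all the others. Its log2 fold changes were -0.047 ± 0.14 and 0.0043 ± 0.14 (adjusted p = 0.83 and 0.99), and the 95% intervals of -0.37 to 0.27 and -0.31 to 0.32 bound the change. Psmd6, Psmd7 and Psmd13 were not called in any comparison, with log2 fold changes between -0.037 and 0.11.

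The 4 activators had negative log2 fold changes in both derived lines, with medians of -0.42 in PRAMEL7WT ESCs and -0.39 in PRAMEL7ΔN ESCs, except that Psme4 was at 0.0074 in PRAMEL7WT ESCs once the mean of its chromosome was subtracted. Of the 4, 3 were called lower in each line, where 16.3% and 13.6% of all genes tested were. Psme3 and Psme4 lie on chromosome 11, where 45.8% and 39.3% of genes were lower. The chromosome mean was subtracted as its departure from the mean over all genes, so a shift common to all genes stayed in. After that subtraction, 2 and 1 of the 4 were called lower, beside 1845 and 1468 of all 12914 genes tested. Psme1 and Psme2 form the interferon-inducible ring that caps the core, and lie 5912 bases apart on chromosome 14. Psme1 was at 76.1 and 87.3 CPM in parental ESCs, 58.6 and 60.5 in PRAMEL7WT ESCs and 77.2 and 74.98 in PRAMEL7ΔN ESCs. The full-length line lay below the other 4 libraries, at -0.45 ± 0.098 against parental ESCs (adjusted p = 0.011) and -0.35 ± 0.098 against PRAMEL7ΔN ESCs (adjusted p = 0.033), whereas PRAMEL7ΔN ESCs was at -0.098 ± 0.098 (adjusted p = 0.53).

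Psme2 was at 72.8 and 68.3 CPM in parental ESCs, 50.3 and 53.3 in PRAMEL7WT ESCs and 55.0 and 51.7 in PRAMEL7ΔN ESCs. Both derived lines lay below parental ESCs, by -0.44 ± 0.095 (adjusted p = 0.011) and -0.40 ± 0.095 (adjusted p = 0.018), with no call between them (-0.042 ± 0.095, adjusted p = 0.78). The difference between Psme1 and Psme2 in PRAMEL7ΔN ESCs was not tested. Against parental ESCs, the Psme1 and Psme2 calls in PRAMEL7WT ESCs were lost without either PRAMEL7WT library (adjusted p between 0.074 and 0.12), and that of Psme2 in PRAMEL7ΔN ESCs without any 1 of the 4 derived libraries (adjusted p between 0.052 and 0.13).

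Psme3, which forms a nuclear cap of its own, was at 533 and 445 CPM in parental ESCs, 393 and 343 in PRAMEL7WT ESCs and 364 and 383 in PRAMEL7ΔN ESCs. The fall was -0.41 ± 0.11 (adjusted p = 0.023) and -0.38 ± 0.11 (adjusted p = 0.034). These calls held in 8 and 7 of 13 other settings. The first was lost without PRAMEL7WT replicate 1 (-0.50) or 2 (-0.31). The second was lost without any 1 of the 4 derived libraries (-0.42 to -0.35). Psme4, the large activator known for acetylated histone turnover, was at 391 and 311 CPM in parental ESCs, 286 and 293 in PRAMEL7WT ESCs and 227 and 269.8 in PRAMEL7ΔN ESCs. It was called in PRAMEL7ΔN ESCs (-0.50 ± 0.12, adjusted p = 0.020) and not in PRAMEL7WT ESCs (-0.27 ± 0.12, adjusted p = 0.13), and the derived lines were not called apart (0.23 ± 0.12, adjusted p = 0.21). Psmf1, an inhibitor of the core in the test tube, was at 59.8 and 60.5 CPM in parental ESCs, 48.7 and 52.6 in PRAMEL7WT ESCs and 52.2 and 48.9 in PRAMEL7ΔN ESCs. Both derived lines lay below parental ESCs, but neither was called (-0.24 ± 0.096 and -0.25 ± 0.096, adjusted p = 0.089 and 0.10).

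Of the 7 chaperones of assembly, 2 were higher in PRAMEL7WT than in PRAMEL7ΔN ESCs, where 10.9% of all genes tested were, and 1 was lower in PRAMEL7ΔN ESCs than in parental ESCs, where 13.6% were. Psmd9, which escorts ATPases during assembly of the base, was at 43.1 and 47.1 CPM in parental ESCs, 48.0 and 55.5 in PRAMEL7WT ESCs and 33.9 and 37.3 in PRAMEL7ΔN ESCs. The derived lines differed by 0.52 ± 0.11 (adjusted p = 0.012), with parental ESCs between them. Psmg4, a chaperone of the alpha ring, was at 13.3 and 13.9 CPM in parental ESCs, 16.2 and 19.2 in PRAMEL7WT ESCs and 10.4 and 13.2 in PRAMEL7ΔN ESCs. Its derived lines likewise lay on either side of parental ESCs and differed by 0.55 ± 0.15 (adjusted p = 0.032). Psmg2 was at 49.9 and 44.0 CPM in parental ESCs, 39.4 and 45.2 in PRAMEL7WT ESCs and 35.1 and 36.3 in PRAMEL7ΔN ESCs, where it was called lower (-0.38 ± 0.11, adjusted p = 0.040). Psmg1, Psmg3, Psmd5 and Psmd10 were not called.

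**Figure D3:**
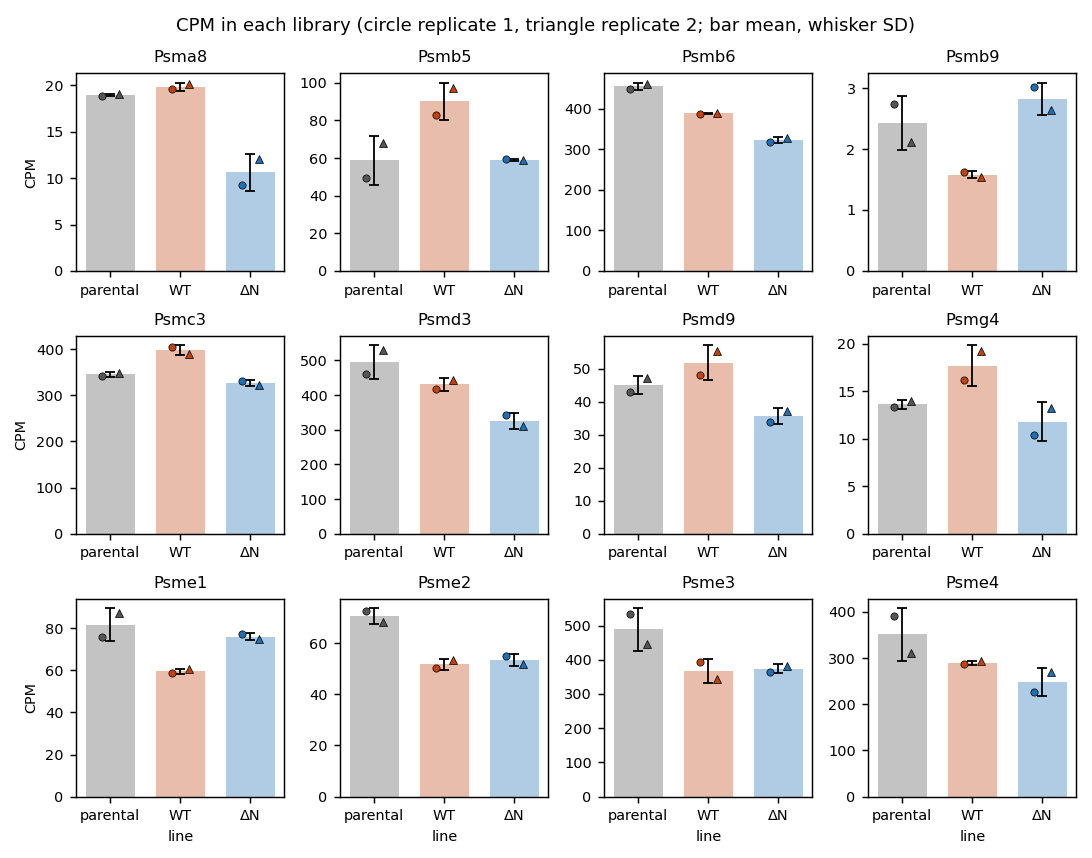
CPM in each library (vertical, from 0) for the 8 genes other than Psme1 that differed between the derived lines and the 4 activators; bars give the mean of 2 libraries, whiskers the SD, circles replicate 1 and triangles replicate 2. Psmb6 and Psmd3 step down from parental ESCs to the truncated line, Psmb5 is high only with full-length PRAMEL7, and Psme2 and Psme3 are low in both derived lines.

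Many of the members that fell share a chromosome. Chromosome 11 carries 8 of the 46 genes tested: Psmb3, Psmb6, Psmc5, Psmd3, Psmd11, Psmd12, Psme3 and Psme4. All 8 had a negative log2 fold change in both derived lines. That held for 3 and 7 of 8 after the chromosome's departure from the mean over all genes was subtracted. Without subtraction, medians were -0.26 in PRAMEL7WT ESCs and -0.37 in PRAMEL7ΔN ESCs, and 3 and 5 of the 8 were called lower. Other genes of that chromosome lay in the same direction. Of 1102 tested genes on chromosome 11, 945 and 953 were negative, with medians of -0.36 and -0.33, and 45.8% and 39.3% were called lower, while 3.36% and 2.45% were called higher beside 0 of the 8 members. The count of members called lower on chromosome 11, 3 and 5 of 8, is to be read against those shares.

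On the other chromosomes the 38 genes tested had medians of 0.036 and -0.018, where all genes tested off chromosome 11 had -0.054 and -0.038. Of the 25 constitutive 26S subunits located there, none was called lower in either line, where 13.6% and 11.2% of all genes tested off chromosome 11 were. Their lowest values were -0.19 and -0.11 (both Psmc6). Psmb4 and Psmb5 were called higher in PRAMEL7WT ESCs and Psmd8 in PRAMEL7ΔN ESCs, where 9.21% and 6.6% of those genes were. The members called lower off chromosome 11 were the activators Psme1 and Psme2 in PRAMEL7WT ESCs, and Psma8, Psme2 and Psmg2 in PRAMEL7ΔN ESCs. After the mean shift of each chromosome and line relative to all genes was subtracted, 2 members were higher and 2 lower in PRAMEL7WT ESCs. In PRAMEL7ΔN ESCs the counts were 0 and 5. Over all 12914 genes tested, 979 were higher and 1845 lower in PRAMEL7WT ESCs, and 658 and 1468 in PRAMEL7ΔN ESCs. Psmb6 and Psmd3 were still called lower in PRAMEL7ΔN ESCs, whereas Psmd11, Psmd12, Psme3 and Psme4 were not called in either line. Between the derived lines, chromosome 11 genes had a median of -0.043, with 7.8% called higher and 9.26% lower, beside 2 (Psmb6 and Psmd3) and 0 of the 8 members. A change in the number of copies of the chromosome was not tested.

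**Figure D4:**
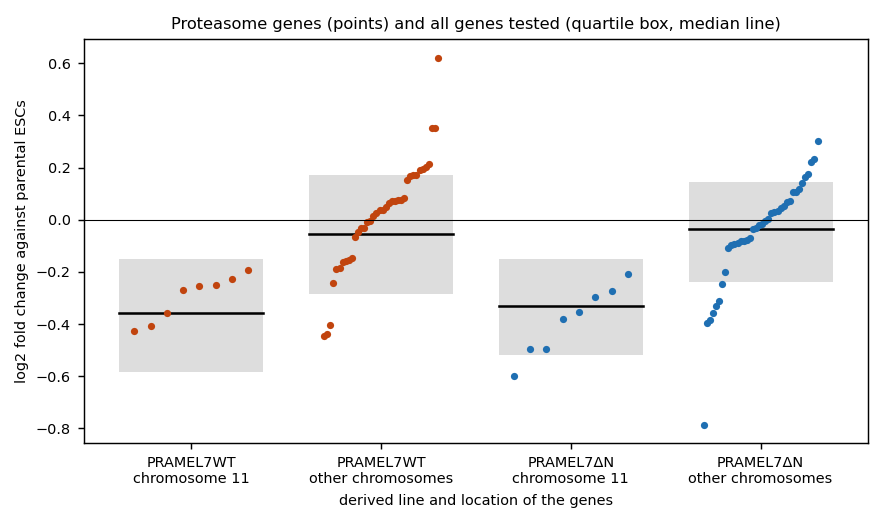
Log2 fold change against parental ESCs (vertical) of the 46 genes, as points sorted by value, split by line and by location on chromosome 11 or elsewhere; grey boxes span the quartiles and black lines the median of all genes tested at that location. All 8 points on chromosome 11 lie below zero in each line, within or near the box of their own chromosome. After the chromosome's mean shift relative to all genes is subtracted, 3 and 7 of them do.

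The 2 parental libraries differed from each other across the members. Of the 46 genes, 34 were higher in parental replicate 1 than in replicate 2, with a median log2 gap of 0.18 beside -0.021 over all genes tested, and of the 31 constitutive 26S subunits 26 were, with a median of 0.23. These 31 subunits took 1.018% of the reads in parental replicate 1 and 0.915% in replicate 2, and between 0.924% and 0.960% in the 4 derived libraries, so both extremes were parental. Squared differences between replicates exceeded counting error by 14.0 times for the members in parental ESCs, 2.36 times in PRAMEL7WT ESCs and 5.06 times in PRAMEL7ΔN ESCs. Without parental replicate 1 the members had medians of 0.079 in PRAMEL7WT ESCs and 0.052 in PRAMEL7ΔN ESCs, beside -0.082 and -0.072 over all genes tested. Without parental replicate 2 their medians were -0.13 and -0.16, beside -0.084 and -0.054 over all genes tested. The comparison of the derived lines does not involve the parental levels, and its median stayed at 0.022 without either parental library. Its p-values do use the parental spread, and its calls over all genes tested rose without either parental library.

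Genes that act with the proteasome were read from lists of their own, to be read against the shares of all genes tested given above for each comparison. Of 13 tested partners (further subunits, ubiquitin receptors, deubiquitinases and shuttles), none was called in PRAMEL7WT ESCs against parental ESCs, and Sem1, the small lid subunit, was higher in PRAMEL7ΔN ESCs (0.46, adjusted p = 0.036). Between the derived lines the receptor Adrm1 was higher with full-length PRAMEL7 (0.52, adjusted p = 0.032) and Sem1 was lower (-0.61, adjusted p = 0.012). Of 10 regulators of proteasome gene transcription, Nfe2l1, the factor that raises proteasome genes when the proteasome is inhibited, was at 470.1 and 543 CPM in parental ESCs, 345 and 355 in PRAMEL7WT ESCs and 335 and 322 in PRAMEL7ΔN ESCs. It fell by 0.53 (adjusted p = 0.0043) and 0.62 (adjusted p = 0.0020) on the log2 scale, and lies on chromosome 11. Its relative Nfe2l3, at most 3.06 CPM, was lower in PRAMEL7WT ESCs (-0.62, adjusted p = 0.023) and lower there than in PRAMEL7ΔN ESCs (-0.70, adjusted p = 0.016). Mafg, a partner of these factors also on chromosome 11, was lower in PRAMEL7ΔN ESCs (-0.40, adjusted p = 0.016), and in the direct comparison Mafg was higher (0.30, adjusted p = 0.046) and the protease Ddi2, which activates Nfe2l1, lower (-0.31, adjusted p = 0.038) with full-length PRAMEL7.

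Among genes of ubiquitin supply, the ubiquitin-activating enzyme Uba6 fell in PRAMEL7WT ESCs (-0.66, adjusted p = 0.0081), also against PRAMEL7ΔN ESCs (-0.65, adjusted p = 0.0086). Class I presentation, which uses the peptides that the proteasome makes, was read from 8 genes. Of these, 5 were lower and none higher in each derived line, where 16.3% and 13.6% of all genes tested were lower and 8.71% and 6.25% higher, with medians of -0.48 and -0.56 beside -0.078 and -0.057 over all genes tested: the light chain B2m, the heavy chains H2-K1 and H2-D1, the transcription factor Irf1 and the peptidase Erap1. B2m was at 14.8 and 13.0 CPM in parental ESCs, 5.97 and 6.17 in PRAMEL7WT ESCs and 9.69 and 7.71 in PRAMEL7ΔN ESCs, a log2 fold change of -1.07 (adjusted p = 0.0022) and -0.62 (adjusted p = 0.021). H2-K1 was lower in the full-length than in the truncated line (-0.50, adjusted p = 0.040), and Irf1, also on chromosome 11, was higher (0.34, adjusted p = 0.034).

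Promoter sequences from RefSeq (GRCm38.p6, 250 bases before to 50 after the start of the gene) were held for 40 of the 48 genes. They were searched on both strands for 4 motifs. A proteasome gene counted once if any of its promoters matched, whereas the share over all promoters counts each promoter. The 2 percentages given for a motif are therefore not the same measure. The antioxidant response element, TGACNNNGC, bound by the Nfe2l factors with their Maf partners, was found in 6 of the 40 (15%) and in 12.4% of 32851 promoters. The interferon-stimulated response element, GAAA followed after any 2 bases by GAAA again, was in 5 (12.5%) and in 3.44% of all promoters. The CCAAT box was in 14 (35%) and in 37.4% of all promoters, and an ETS site, CCGGAAG, in 14 (35%) and in 8.86% of all promoters. A match in these windows is a description of letters and not a binding site, and no factor was measured here.

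The antioxidant response element matches are shown with up to 10 bases on either side, on the strand of the gene and with the match in capitals. They are printed because they include Psmb5 and Psmb6, the constitutive catalytic subunits that were called. Psmb9, an inducible catalytic subunit also called between the derived lines, had no match. The match of Psmb5 began 47 bases before the start of the gene and that of Psmb6 began 9 bases before it; where the capitals begin with GC they match on the opposite strand.
Psmb5: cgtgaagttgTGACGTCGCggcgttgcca
Psmb6: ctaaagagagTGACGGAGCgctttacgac
Psmc6: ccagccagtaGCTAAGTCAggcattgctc
Psmd9: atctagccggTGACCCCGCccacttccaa
Psmd12: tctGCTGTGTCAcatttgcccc
Psme4: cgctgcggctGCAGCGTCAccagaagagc

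The interferon-stimulated response element matches are shown in the same way, because the list holds Psme1, whose match began 9 bases after the start of the gene. Psme2 had no match in its window. Capitals that begin with TTTC match on the opposite strand.
Psmb3: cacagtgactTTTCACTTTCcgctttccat
Psmd4: ataaccaaccTTTCCATTTCtgtggcgcct
Psmd9: gggacagaatGAAAAAGAAAggaatgaaca
Psme1: cgagctgtgcTTTCGCTTTCccttcccgct
Psmg4: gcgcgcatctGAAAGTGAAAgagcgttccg

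Of the 6 genes with the antioxidant response element, Psmb5 rose in PRAMEL7WT ESCs, Psmd12 fell there, Psmb6 and Psme4 fell in PRAMEL7ΔN ESCs, Psmd9 differed only between the derived lines, and Psmc6 was not called. The 250 bases upstream of Psmb5 are given in full for context, since it was the catalytic subunit with the largest difference (GRCm38.p6, chr14:54617996-54618245, minus strand, the match in capitals).
Psmb5: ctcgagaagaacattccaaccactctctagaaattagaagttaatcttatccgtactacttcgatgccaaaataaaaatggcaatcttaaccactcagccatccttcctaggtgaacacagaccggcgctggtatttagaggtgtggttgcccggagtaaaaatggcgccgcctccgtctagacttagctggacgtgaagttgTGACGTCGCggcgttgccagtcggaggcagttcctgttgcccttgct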

How the data were processed

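The 48 genes and the gene lists were chosen with earlier results of these data known. The RPKM deposited by the authors came, by the study's methods, from reads filtered with SortMeRNA, trimmed with Trimmomatic and mapped with STAR to mm10, whereas the submitters' processing notes name Bowtie2 2.3.4.3 and Subread 1.4.6-p4. The authors' tables of DESeq2 fold changes and p-values were not used, and CHD4 ChIP-seq was not analysed here. Of 50978 rows, 176 with repeated or date names, 2796 without and 66 with several matches in GENCODE vM21 were left out. RPKM had been divided by the gene span: between 98.05% and 98.4% of values up to 20 reads were whole within 0.1 read. Values were therefore multiplied by the span to give CPM, keeping the authors' scaling. limma 3.58.1 (R 4.3.3) with a mean-variance trend was fitted to log2(CPM + 1) of the 6 libraries with line as the only term. The fit was checked on simulated data. Alternatives were another pseudocount, filter, scaling, trend or limit, voom, only the lines compared, a replicate block and RPKM as deposited. Each chromosome's mean was also subtracted, as its departure from the mean over all genes, which keeps a shift common to all genes. For medians, the chromosome's whole median fold change was subtracted as well. Further alternatives left out each library and, chosen after seeing the data, summed Psmb5 with Gm3375. Every proteasome gene could be named; library values are given for the 5 largest called changes per comparison and direction and for preset catalytic, receptor and activator genes. Near copies came from blastn 2.17.0. Precision is limited by 2 libraries a line. Observed over counting variance between replicates was 1.50 to 3.34 over all genes and 2.36 to 14.0 for the members. Counting variance falls with the reads of a gene, so these ranges do not rank members against all genes. Median absolute log2 gaps between replicates were 0.23 for the members and 0.19 over all genes tested in parental ESCs. They were 0.066 and 0.10 in PRAMEL7WT ESCs, and 0.091 and 0.12 in PRAMEL7ΔN ESCs. The study's methods speak of triplicates; 2 libraries a line were used here.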

Additional observations from a re-analysis of the deposited data

Results flagged for a closer look

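For 9 members the effect of full-length PRAMEL7 differed from that of the truncated protein in the direct limma comparison of the derived lines (adjusted p under 0.05), which is why they are listed; 7 were higher and 2 lower with the full-length protein, and in each both libraries of one line lay above both of the other. The log2 differences were 0.85 for Psma8, 0.60 for Psmb5, 0.55 for Psmg4, 0.52 for Psmd9, 0.40 for Psmd3, 0.28 for Psmc3, 0.27 for Psmb6, -0.35 for Psme1 and -0.57 for Psmb9. Psmb9 was near the filter of 1 CPM. The calls for Psmc3, Psmd3, Psmb5, Psmb6, Psmb9, Psme1 and Psmg4 were lost whichever 1 of the 4 derived libraries was left out. A library of either derived line was 1 dish of 1 clone, and the transgene RNA differed between the lines, so that clone, transgene level and truncation cannot be told apart.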

How the results depend on the processing

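Of the 25 calls, 7 kept an adjusted p under 0.05 in every other setting that tested the gene, and 2 also with each library left out; none of the 25 changed sign. For PRAMEL7WT against parental ESCs (2 members higher, 5 lower, median -0.0053), the number higher was 0 without a filter or with RPKM as deposited, 1 without the mean-variance trend, with only the lines compared or past the 0.58 limit, 4 with median-ratio scaling and 5 by unadjusted p. The number lower was 0 past the limit, 2 with RPKM or with the chromosome mean subtracted, 3 with median-ratio scaling or without the trend, 8 with quantile scaling and 10 by unadjusted p. Over all genes tested, 621 were higher and 1275 lower of 24916 without a filter, and 227 and 134 of 2347 with RPKM. Of 12914, the counts were 880 and 1839 without the trend, 888 and 1588 with only the lines compared, and 1848 and 3275 by unadjusted p. Past the limit they were 600 and 1163, and with the chromosome mean subtracted 979 and 1845. The median of the members was 0.083 with median-ratio scaling and 0.11 when each fold change was taken relative to the median of its chromosome. With the chromosome mean subtracted, which keeps the shift over all genes, it was 0.022, beside -0.083 over all genes tested. Leaving out 1 library gave 0 to 9 members higher, 0 to 10 lower and medians from -0.13 to 0.079. These ranges are to be read against all genes tested. Their calls, higher and lower, rose without either parental library and fell without any 1 derived library.

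For PRAMEL7ΔN against parental ESCs (1 higher, 8 lower, median -0.075), none was higher without a filter, with quantile scaling, without the trend, with only the lines compared, with RPKM, with the chromosome mean subtracted or past the limit, and 2 were by unadjusted p. The number lower was 2 past the limit, 3 with RPKM, 4 without the trend, 5 without a filter, with only the lines compared or with the chromosome mean subtracted, and 14 by unadjusted p. Over all genes tested, 497 were higher and 1198 lower of 24916 without a filter, and 137 and 134 of 2347 with RPKM. Of 12914, the counts were 666 and 1567 without the trend, 518 and 1182 with only the lines compared, and 1451 and 2820 by unadjusted p. Past the limit they were 406 and 1184, and with the chromosome mean subtracted 658 and 1468. The median of the members was 0.030 relative to the chromosome median. With the chromosome mean subtracted, which keeps the shift over all genes, it was -0.036, beside -0.060 over all genes tested. Leaving out 1 library gave 0 to 6 members higher, 2 to 11 lower and medians from -0.16 to 0.052. Here too, calls over all genes tested rose without either parental library and fell without any 1 derived library. Between the derived lines (7 higher, 2 lower), 0 were higher with RPKM, 2 without a filter or past the limit and 3 without the trend; 0 were lower without a filter, with RPKM or past the limit, and 1 with a pseudocount of 0.1, a filter of 10 CPM, no trend or voom. Leaving out 1 library gave medians from -0.00064 to 0.052, and the number of calls over all genes tested moved as well. Over all genes tested, 812 were higher and 615 lower of 24916 without a filter, and 160 and 97 of 2347 with RPKM. Those counts were 1203 and 1043 without the trend and 1433 and 1229 with a pseudocount of 0.1. With a filter of 10 CPM they were 998 and 957 of 8913, and with voom 1298 and 1252. RPKM as deposited left 2347 genes and 32 members to test. The cause of the other moves was not tested.

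Replicate numbers did not pair the libraries: deviations of same-numbered libraries correlated at 0.21, -0.25 and -0.10 between lines. With the replicate number as a block, 2 members were higher and 5 lower, 1 and 7, and 6 and 0 in the 3 comparisons. Over all 12914 genes tested, 955 were then higher and 1774 lower in PRAMEL7WT ESCs against parental ESCs. In PRAMEL7ΔN ESCs against parental ESCs the counts were 652 and 1460. Between the derived lines 1206 were higher. In each comparison fewer genes were called higher, and fewer lower, than without the block.

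Sign changes occurred among uncalled values. With the chromosome mean subtracted, Psmb6 was at 0.047 and Psme4 at 0.0074 in PRAMEL7WT against parental ESCs, Psmd14 at -0.0073 in PRAMEL7ΔN, and Psme3 at 0.014 and Psmf1 at -0.032 between the derived lines. Median-ratio scaling put Psmd14 at 0.041 in PRAMEL7WT, and voom put Psmf1 at -0.014 between the derived lines. With 1 library left out, the lowest and highest values were -0.20 and 0.25 for Psmb5, -0.010 and 0.30 for Psmb7 and -0.22 and 0.23 for Psmd14 in PRAMEL7ΔN against parental ESCs, and -0.27 and 0.17 for Psmd14 in PRAMEL7WT. Between the derived lines they were -0.0097 and 0.11 for Psmb7, -0.18 and 0.080 for Psmd14, -0.085 and 0.00067 for Psme2, -0.12 and 0.072 for Psme3 and -0.052 and 0.055 for Psmf1. With 2 libraries a line, leaving out 1 assumes that the lone library varies like the other lines.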
